A study of Nasonia vitripennis with 70 samples.

Results

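Tm1, Tm2 and Zasp66 are 3 of the 14621 genes counted in head and abdomen RNA of Nasonia vitripennis, a small parasitoid wasp, and were taken from the tables by their symbols in all 70 libraries. All libraries belong to WGDL, a line in which colchicine had doubled the whole genome. Nasonia males normally develop from unfertilised eggs and carry a single chromosome set, and the line holds triploid females and diploid males beside the usual diploid females and haploid males. The 16 groups were triploid (3N) and diploid (2N) females of generations F14 and F2, and diploid (2N) and haploid (1N) males of generations F15 and F5, each as heads and as abdomens, taken 1 day after emergence. Groups held 4 or 5 libraries each, and library totals were between 12.2 and 25.1 M counts (M, mega). The labels do not say which libraries came from separate animals, how many animals entered a library, or which head and abdomen belong together, so the p-values measure the spread between these libraries only. Libraries are named here by their codes, such as C69, and counts of heads or abdomens are counts of libraries.

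Tropomyosins are rod-shaped proteins that lie along actin filaments; in striated muscle, together with troponin, they control where myosin can bind. In Drosophila, Tm1 and Tm2 are neighbouring genes, and Tm1 also encodes forms that work outside muscle. Zasp66 is named after a Drosophila protein of the Z-disc, the plate in which the actin filaments of adjoining sarcomeres are anchored. Roles of the 3 genes are stated here from Drosophila and were not measured. In the RefSeq gene table of assembly Nvit_psr_1.1, all 3 lie on chromosome 4, with 398 genes between Tm1 and Zasp66 and 1430 between Tm1 and Tm2, so the tropomyosin genes are not neighbours in the wasp. RefSeq lists 50 transcripts for Tm1, 4 for Tm2 and 9 for Zasp66, and none of the genes overlaps another annotated gene. Of 49 further muscle symbols looked up, 0 occur in the table, in which only 829 of 14621 symbols are names and not locus numbers. Muscle content could therefore not be checked with independent markers.

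Before the results, the tissue labels were compared with marker genes of the head. The summed level of 3 eye genes (Lop1, HisCl1, white) was between 1018 and 14616 TPM in the 18 male heads and between 1807 and 9937 TPM in the 17 female heads. TPM is a level scaled to transcript length and library size. In 17 of 18 male abdomens the same sum was between 0.11 and 2.94 TPM, and in the 17 female abdomens at most 1.59 TPM. The exception was library C46, labelled as an F5 diploid male abdomen, with 3439 TPM of eye genes, 455 TPM of 4 neuronal genes (Syt1, Para, nAChRa8, nAChRb3) and 85500 TPM of 3 cuticle genes (CPR16, CPR22, CPR48), where the other 17 male abdomens had 31.3 to 100 TPM and 692 to 1327 TPM. Its log-scale correlation across genes was 0.992 with the F5 diploid male head library C45 and at most 0.823 with any other male abdomen. This library was kept as labelled in the tests, and some results on abdomens are also given without it. In C46 the level of Tm1 was 2758 TPM, that of Tm2 33.5 TPM and that of Zasp66 314 TPM, all inside the range of the other male abdomens.

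Tm1 was the most abundant of the 3 genes in every library. Its level ran between 487 and 8281 TPM in male heads (median 2502 TPM) and between 370 and 2414 TPM in female heads (median 859 TPM). In male abdomens Tm1 was between 1017 and 5553 TPM (median 1625 TPM), and in female abdomens between 398 and 4909 TPM (median 600 TPM). Zasp66 was lower. Its level was between 45.5 and 844 TPM in male heads, between 40 and 327 TPM in female heads, between 156 and 616 TPM in male abdomens and between 13.2 and 487 TPM in female abdomens. Tm2 varied little in most libraries, and 67 of 70 had a level between 22.8 and 104 TPM. The other 3 were C87, an F15 haploid male abdomen with 961 TPM, C81, an F15 haploid male head with 182 TPM, and C91, an F15 diploid male head with 129 TPM. The plot of levels by group shows these single libraries above otherwise flat rows of points for Tm2.

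**Figure D1:**
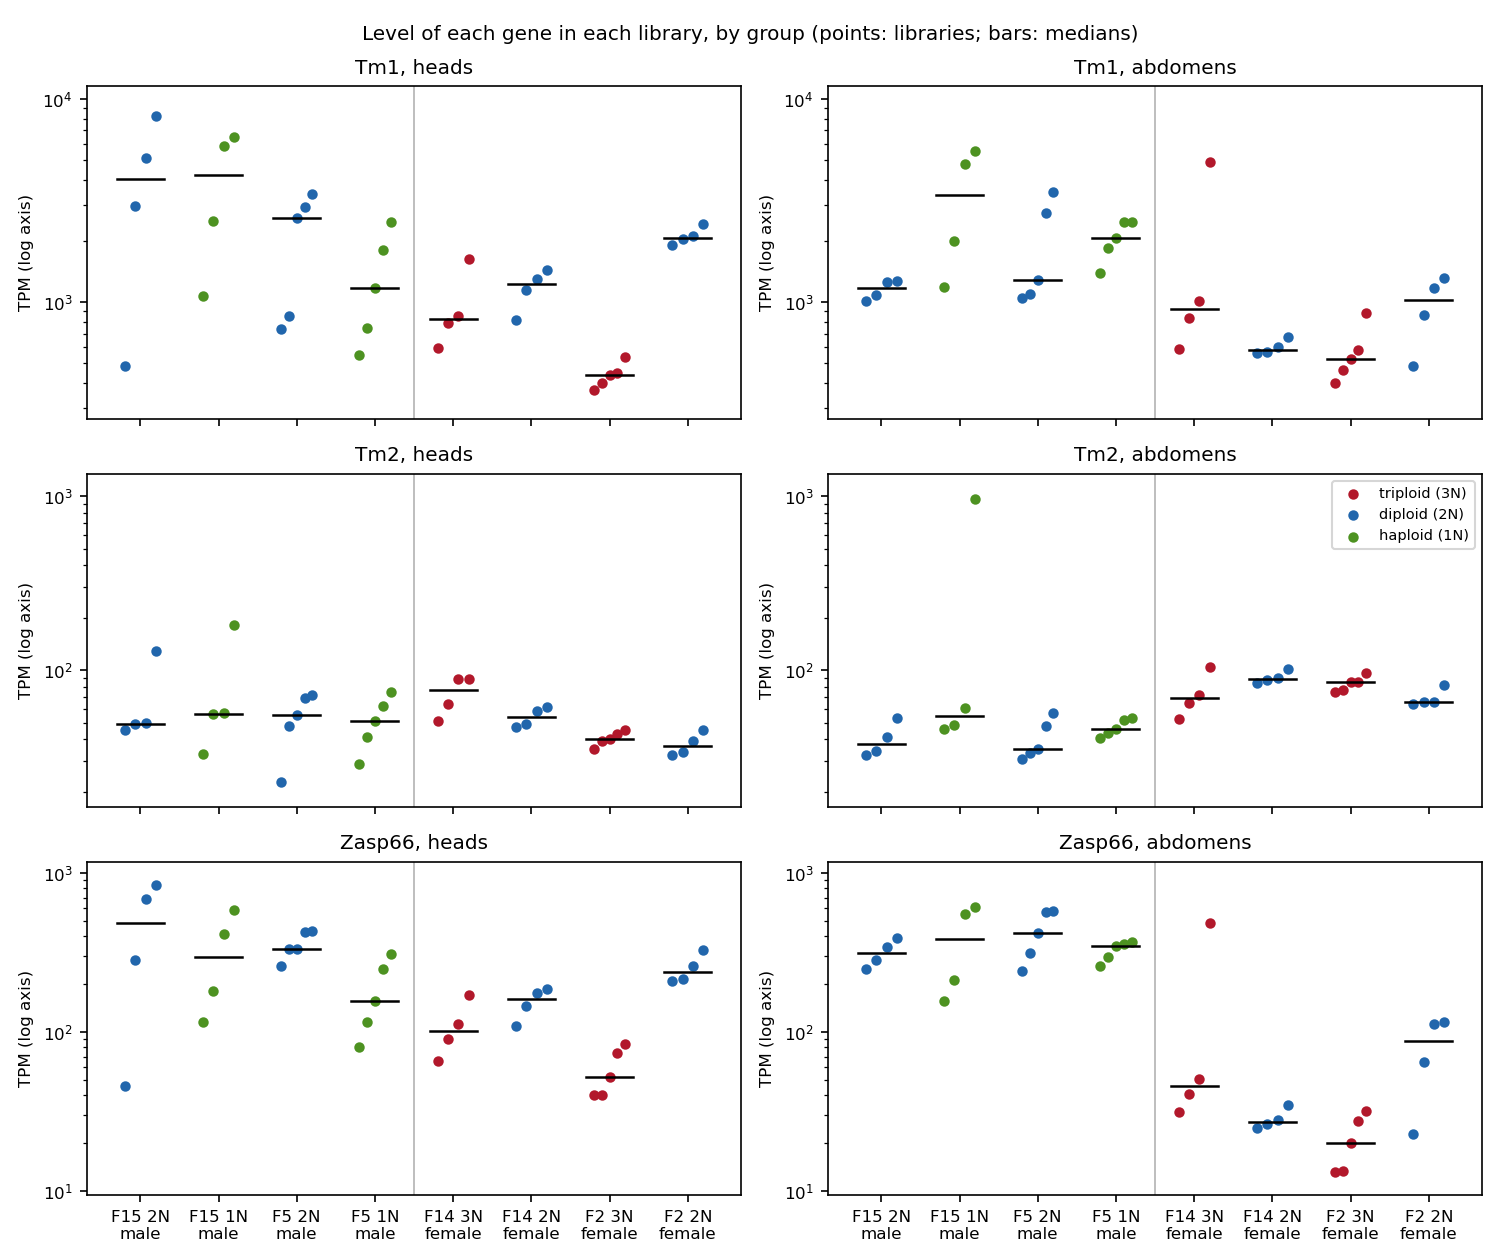
Level of Tm1, Tm2 and Zasp66 in TPM (log axis) in each of the 70 libraries, by group, with heads on the left and abdomens on the right; points are libraries, bars are group medians and colours give the ploidy. Tm1 and Zasp66 share their pattern of high and low groups, while Tm2 spans less apart from C87, C81 and C91.

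The order of the 8 groups by median level differed between tissues. In heads, Tm1 ran from F15 haploid males (median 4209 TPM) and F15 diploid males (4044 TPM) down to F14 triploid females (823 TPM) and F2 triploid females (436 TPM). Of the 7 pairs of neighbours in that order, 5 overlapped in their libraries. The gaps without overlap lay between F2 diploid and F14 diploid females and between F14 triploid and F2 triploid females. By counts scaled to library size, F14 triploid and F2 triploid female heads did overlap for Tm1. For Zasp66 in heads, the order ended with the same F2 triploid females (median 52.4 TPM), and only F2 diploid and F14 diploid females were neighbours without overlap. In abdomens, the lowest male group for Zasp66, F15 diploid males with 250 to 392 TPM, lay wholly above the highest female group by median, F2 diploid females with 22.7 to 115 TPM. All neighbouring groups overlapped for Tm1 in abdomens and for Tm2 in both tissues.

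In F2 female heads, both Tm1 and Zasp66 were lower in triploids. Tm1 had 370, 399, 436, 446 and 534 TPM in the 5 F2 triploid heads, against 1919, 2036, 2124 and 2414 TPM in the 4 F2 diploid heads. Zasp66 had 40, 40, 52.4, 73.6 and 84.4 TPM in the triploid heads, against 208, 216, 259 and 327 TPM in the diploid heads. The groups did not overlap for either gene, and the highest triploid library lay well below the lowest diploid one. Fold changes come from the counts with edgeR's quasi-likelihood test, adjusted over all genes tested by Benjamini-Hochberg, and calls are values with an adjusted p under 0.05. The log2 fold change was -1.99 for Tm1 (SE 0.59, adjusted p = 0.019) and -2.13 for Zasp66 (SE 0.59, adjusted p = 0.0116). Of all genes in this comparison 18.6% were called. Both calls were kept in each of the 9 refits that left out 1 of these libraries, with Tm1 between -2.05 and -1.91. Tm2 had 35.4 to 45.1 TPM in the triploid heads and 32.4 to 45.2 TPM in the diploid heads, and its log2 fold change was 0.06 (SE 0.26, adjusted p = 0.907).

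Some genes of other lists also differed between these heads. The 3 cuticle genes summed to between 286 and 521 TPM in F2 triploid heads and between 12553 and 18831 TPM in F2 diploid heads. CPR48 (log2 fold change -6.6, edgeR adjusted p = 0.00066) and CPR22 (-2.14, adjusted p = 0.0219) were called, and CPR16 was not (-0.23, adjusted p = 0.562). Or1, the odorant co-receptor of antennal neurons, was between 1.34 and 19.9 TPM in triploid heads and between 51.5 and 91.1 TPM in diploid heads. The eye list summed to 3097 to 5614 TPM in triploid heads and to 5135 to 9937 TPM in diploid heads, with overlap. Of its genes only white was called (log2 -6.15, edgeR adjusted p = 2.21e-06), and white was listed at 0 in 2 of the 5 triploid heads. Lop1 was at -0.99 (adjusted p = 0.104) and HisCl1 at 0.28 (adjusted p = 0.579). The sums of the 4 neuronal genes overlapped, at 387 to 658 TPM in triploid heads and 403 to 590 TPM in diploid heads, but 3 of these genes changed, in both directions. Para, a sodium channel gene, fell by 1.24 on the log2 scale (edgeR adjusted p = 0.0377), and the acetylcholine receptor genes nAChRa8 and nAChRb3 rose by 0.67 (adjusted p = 0.0022) and 0.82 (adjusted p = 0.0111). The part of these lists in the levels of Tm1 and Zasp66 was not tested. In bulk tissue, fewer muscle cells and less RNA per muscle cell cannot be told apart.

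At F14 the same comparison in heads gave no call. Tm1 had 596, 787, 859 and 1636 TPM in F14 triploid heads, against 819, 1141, 1306 and 1442 TPM in F14 diploid heads. Zasp66 had 66.1, 90.8, 112 and 171 TPM in triploid heads, against 109, 145, 176 and 186 TPM in diploid heads. The groups overlapped for both genes, and library C64 held the highest triploid value of each. The log2 fold change of Zasp66 was -0.65 (SE 0.61, adjusted p = 0.504), that of Tm1 -0.28 (SE 0.62, adjusted p = 0.808) and that of Tm2 0.31 (SE 0.28, adjusted p = 0.47), while 20.9% of all genes were called. No unadjusted p was under 0.05, and DESeq2 and limma called none of the 3. Tm2 was between 50.7 and 89.5 TPM in triploid heads and between 46.9 and 61.1 TPM in diploid heads. The change of the ploidy difference between generations, tested directly, was 1.71 for Tm1 (SE 0.85, adjusted p = 0.241) and 1.49 for Zasp66 (SE 0.84, adjusted p = 0.311) on the log2 scale, with 6.25% of all genes called. When the 4 female head groups were fitted without the male heads, both passed, with adjusted p = 0.001 for Tm1 and 0.0188 for Zasp66 (edgeR). The call thus depends on which libraries are fitted together.

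In male heads the spread inside groups was wide. Tm1 had 487, 2968, 5121 and 8281 TPM in F15 diploid heads, against 1074, 2516, 5902 and 6538 TPM in F15 haploid heads. Zasp66 had 45.5, 284, 683 and 844 TPM in F15 diploid heads, against 115, 181, 416 and 589 TPM in F15 haploid heads. The highest F15 diploid head held 17.0 times the Tm1 and 18.6 times the Zasp66 of the lowest, C93. In C93 the cuticle list was also low, at 1620 TPM, where the other 3 libraries of its group had between 57588 and 69822 TPM. That sum follows CPR48 (1104 to 69296 TPM in this group). CPR16 went the other way and was highest in C93, at 420 TPM (lowest in the group 144 TPM). The eye list and Or1 of C93 were high, at 14616 and 314 TPM, where the others had 1018 to 4258 TPM and 36.2 to 151 TPM. At F5, Tm1 had 737, 859, 2601, 2931 and 3415 TPM in diploid heads, against 546, 745, 1179, 1805 and 2487 TPM in haploid heads. The diploid heads with the 2 lowest Tm1 levels, C44 and C43, had 1602 and 1588 TPM of the cuticle list, against 84616 to 147101 TPM in the other diploid heads. Here too the sum follows CPR48 (1106 to 146412 TPM in the F5 diploid heads), while CPR16 stayed between 423 and 620 TPM. The part of the cuticle genes in these Tm1 values was not tested.

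Ploidy gave no call for any of the 3 genes in male heads. At F15 the log2 fold change was -0.16 for Tm1 (SE 0.62), -0.27 for Tm2 (SE 0.28) and 0.25 for Zasp66 (SE 0.61), with edgeR adjusted p between 0.701 and 0.936, and 0.0255% of all genes were called. At F5 it was 0.53 for Tm1 (SE 0.55), 0.07 for Tm2 (SE 0.25) and 0.82 for Zasp66 (SE 0.55), with adjusted p between 0.651 and 0.95 and 0.424% of genes called. The change of the ploidy difference between generations was -0.69 for Tm1, -0.34 for Tm2 and -0.57 for Zasp66, again with no call (0.00849% of genes called). None of these 9 unadjusted p-values was under 0.05, and DESeq2 and limma called none of them. With this spread, small differences were not detectable.

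**Figure D2:**
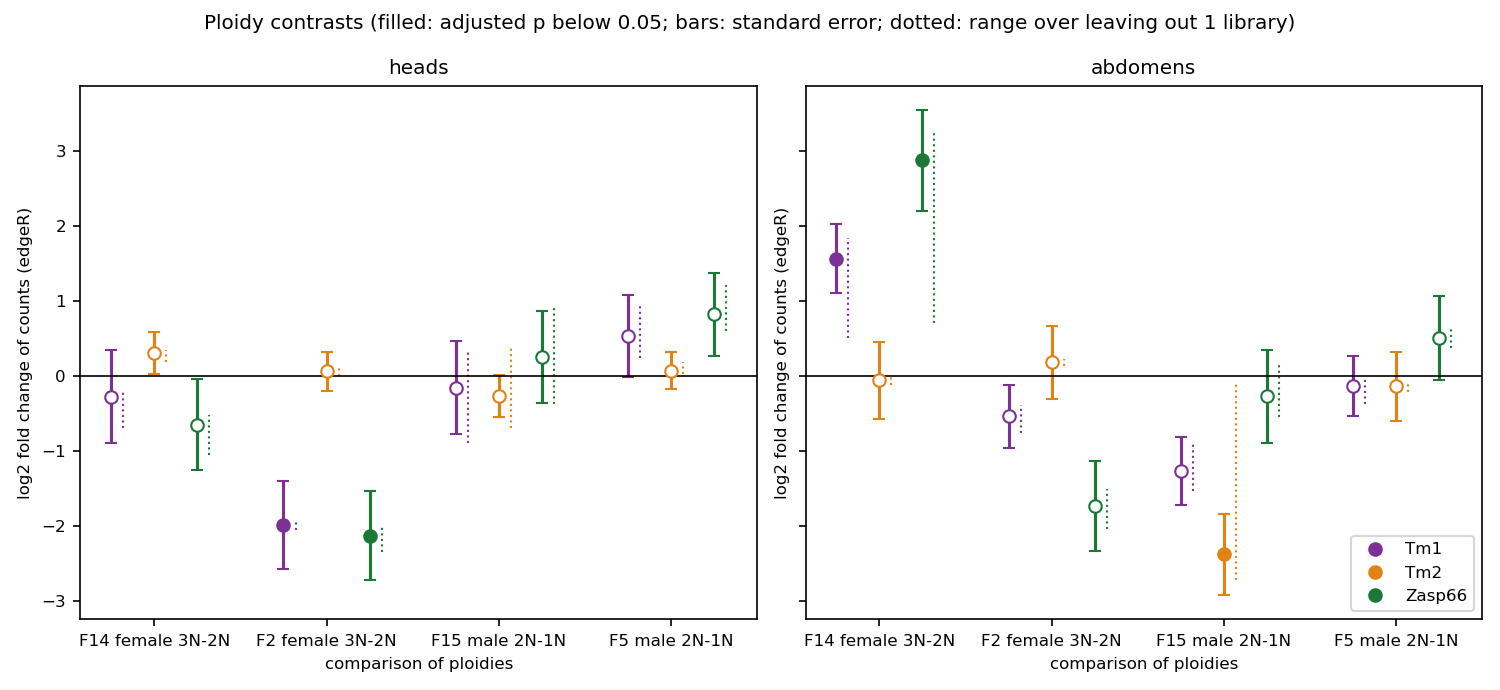
Log2 fold changes of counts between ploidies (triploid over diploid females, diploid over haploid males) for Tm1, Tm2 and Zasp66 in heads (left) and abdomens (right). Points are edgeR estimates with standard errors, filled where the adjusted p was under 0.05, and dotted lines give the range when 1 library is left out. The F2 female head values stay near -1.99 and -2.13, while the called abdomen values reach down to 0.51 and 0.70 at F14 and up to -0.09 at F15 for Tm2.

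In F14 female abdomens, Tm1 and Zasp66 were called as higher in triploids, and both calls were lost without 1 library, C69. Tm1 had 586, 835, 1009 and 4909 TPM in F14 triploid abdomens, against 562, 567, 600 and 677 TPM in F14 diploid abdomens. Zasp66 had 31.5, 40.6, 50.6 and 487 TPM in triploid abdomens, against 25, 26.2, 27.9 and 34.8 TPM in diploid abdomens. The highest value of each gene came from C69, and the lowest triploid library lay inside the diploid range. The log2 fold change was 1.56 for Tm1 (SE 0.46, adjusted p = 0.0164) and 2.87 for Zasp66 (SE 0.67, adjusted p = 0.00404, edgeR), with 19.9% of all genes called. Without C69 they were 0.51 (adjusted p = 0.417) and 0.70 (adjusted p = 0.347), and without C76, a diploid abdomen, Tm1 had adjusted p = 0.0506. Neither gene was called with all libraries of these groups fitted alone, or with limma. Tm2 did not follow: C69 had 52.7 TPM, the lowest of the triploid abdomens, which ran up to 104 TPM, against 84.6 to 101 TPM in diploid abdomens. By counts, C69 was not low, at 94.1 CPM (counts scaled to library size alone), with 79.6 to 97.4 CPM in the other triploid abdomens. The log2 fold change of Tm2 was -0.06 (SE 0.51, adjusted p = 0.944). In C69 the germ-line genes oskar and nanos summed to 636 TPM, the lowest of all female abdomens, whose highest sum was 1712 TPM. Its neuronal sum of 27.3 TPM was the highest of the female abdomens and its cuticle sum of 158 TPM likewise. The triploid abdomens C66 and C67 had germ-line sums of 810 and 940 TPM and neuronal sums of 25.6 and 16.5 TPM, where the diploid abdomens had 1407 to 1712 TPM and 8.07 to 10.7 TPM. Zasp66 was at 50.6 TPM in C66 and 40.6 TPM in C67. The part of these lists in the Tm1 and Zasp66 values was not tested.

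In F2 female abdomens, Zasp66 was lower in triploids without passing the test. It had 13.2, 13.3, 20.1, 27.4 and 32 TPM in F2 triploid abdomens, against 22.7, 64.6, 112 and 115 TPM in F2 diploid abdomens. Only C30 of the diploid libraries fell inside the triploid range. The log2 fold change was -1.74 (SE 0.60, adjusted p = 0.0692, edgeR). It was called with DESeq2 (adjusted p = 0.0241), with these groups fitted alone (0.0211) and without C30 (log2 -2.04, adjusted p = 0.025). Tm1 had 398, 461, 527, 584 and 887 TPM in triploid abdomens, against 486, 864, 1178 and 1313 TPM in diploid abdomens, a log2 fold change of -0.54 (SE 0.42, adjusted p = 0.429). For Tm2 it was 0.18 (SE 0.49, adjusted p = 0.851), and 7.49% of all genes were called in this comparison.

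The ploidy difference in female abdomens differed between generations for Tm1 and Zasp66. The log2 difference of differences, F14 minus F2, was 4.61 for Zasp66 (SE 0.89, adjusted p = 0.000344) and 2.10 for Tm1 (SE 0.62, adjusted p = 0.011), with 32.9% of all genes called by edgeR. For Zasp66 all 18 refits without 1 library kept the call, with the lowest value, 2.44, without C69. For Tm1 it was lost without C69, at 1.05 (adjusted p = 0.116). Tm2 stood at -0.24 (SE 0.71, adjusted p = 0.823).

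In F15 male abdomens Tm2 was called, and the call was lost without C87. Tm2 had 32.4, 34.1, 41.5 and 53.2 TPM in F15 diploid abdomens, against 45.8, 48.3, 60.6 and 961 TPM in F15 haploid abdomens. The other 3 haploid libraries overlapped the diploid ones, and C87 lay far above both. The log2 fold change was -2.38 (SE 0.54, adjusted p = 0.00262, edgeR; 17.5% of genes called). Without C87 it was -0.09 (adjusted p = 0.797). Tm1 had 1017, 1085, 1262 and 1272 TPM in diploid abdomens, against 1183, 1991, 4783 and 5553 TPM in haploid abdomens, so 1 haploid library lay inside the diploid range. Its log2 fold change was -1.27 (SE 0.45, adjusted p = 0.0507). Without C46, whose group is not in this comparison but shares the estimate of the spread, the adjusted p was 0.0426, and without C87 the value was -0.90 (adjusted p = 0.241). Zasp66 had 250, 283, 342 and 392 TPM in diploid abdomens, against 156, 212, 552 and 616 TPM in haploid abdomens, with the haploid libraries on both sides of the diploid ones (log2 -0.27, SE 0.62, adjusted p = 0.836). C87 had 50.5 TPM of neuronal and 874 TPM of cuticle genes, inside the ranges of its group (43 to 60.2 TPM and 814 to 1060 TPM). The cuticle sum was between 1205 and 1327 TPM in the diploid abdomens. One of the 3 cuticle genes, CPR22, was called in the same direction as Tm2, with a log2 fold change of -4.78 (SE 1.62, edgeR adjusted p = 0.038). It had 0.18 to 6.24 TPM in diploid abdomens and 4.92 to 192 TPM in haploid abdomens (median 21.2 TPM), the highest in C87, and was not refitted without C87. CPR16 went the other way without overlap, with 1205 to 1321 TPM in diploid and 681 to 1028 TPM in haploid abdomens. CPR48 was at most 1.27 TPM in haploid abdomens and at 0 in diploid ones. The part of these genes in the Tm2 value was not tested.

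At F5 no gene of the 3 was called between male abdomens, and 0.382% of all genes were. Tm1 had 1050, 1091, 1292, 2758 and 3505 TPM in F5 diploid abdomens, against 1396, 1853, 2062, 2468 and 2474 TPM in F5 haploid abdomens. Zasp66 had 241, 314, 417, 567 and 581 TPM in diploid abdomens, against 259, 296, 348, 358 and 367 TPM in haploid abdomens. The log2 fold changes were -0.13 for Tm1 (SE 0.40), -0.14 for Tm2 (SE 0.46) and 0.50 for Zasp66 (SE 0.56), with adjusted p of at least 0.658 and no unadjusted p under 0.05. Without C46 they were -0.20, -0.11 and 0.61, and none was called. The change of the ploidy difference between male generations was -2.23 for Tm2 (SE 0.70, adjusted p = 0.0615; 4.18% of genes called), and 0.05 without C87.

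Between generations, edgeR gave no call for the 3 genes in heads, although 2 unadjusted p-values were under 0.05, those of Tm1 and Tm2 in haploid males. In triploid female heads the log2 fold change of F14 over F2 was 0.61 for Tm1 (SE 0.58, adjusted p = 0.404). In TPM the F14 libraries, at 596 to 1636 TPM, lay wholly above the F2 libraries at 370 to 534 TPM. By counts they overlapped, at 436 to 1071 CPM at F14 and 387 to 495 CPM at F2. The median of all genes in this comparison was 0.40 on the TPM scale (limma) and 0.04 by counts (edgeR). In diploid female heads Tm1 went in the opposite direction. F14 libraries had 819 to 1442 TPM of Tm1 and 109 to 186 TPM of Zasp66, and F2 libraries 1919 to 2414 TPM and 208 to 327 TPM. The log2 fold changes were -1.10 for Tm1 (SE 0.62, adjusted p = 0.225) and -1.07 for Zasp66 (SE 0.62, adjusted p = 0.229). Fitted with their own groups alone, these were called (adjusted p = 0.000502 and 0.0022), as was Tm1 in triploid heads (adjusted p = 0.0299, edgeR). In haploid male heads, F15 over F5, the values were 1.49 for Tm1 (SE 0.59, adjusted p = 0.0647), 0.59 for Tm2 (SE 0.26, adjusted p = 0.102) and 0.93 for Zasp66 (SE 0.58, adjusted p = 0.26). DESeq2 called Tm1 there (adjusted p = 0.0302). Without C82 the Tm1 value was 0.99, and without C81 the Tm2 value was -0.04. In diploid male heads they were 0.80, 0.25 and 0.36, with adjusted p of at least 0.394. The shares of all genes called were 43.6% in triploid female, 16.4% in diploid female, 22.9% in haploid male and 10.2% in diploid male heads. Generation cannot be told apart from anything else that differed between collections.

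In abdomens 3 values were called between generations, each of which was lost without C69 or C87. In triploid female abdomens, F14 over F2, the log2 fold change was 1.42 for Tm1 (SE 0.42, adjusted p = 0.00906) and 2.88 for Zasp66 (SE 0.62, adjusted p = 0.000611, edgeR), with 42.2% of all genes called. Without C69 these were 0.37 (adjusted p = 0.43) and 0.72 (adjusted p = 0.197). In haploid male abdomens, F15 over F5, Tm2 was at 2.01 (SE 0.49, adjusted p = 0.00767, 12.2% of genes called), and at -0.28 without C87 (adjusted p = 0.221). CPR22 was also called there, at 4.98 (SE 1.48, edgeR adjusted p = 0.0247). Its highest F15 value, 192 TPM, was that of C87 (group median 21.2 TPM), and CPR22 was not refitted without C87. CPR16, another cuticle gene, overlapped, at 681 to 1028 TPM at F15 and 687 to 938 TPM at F5. Zasp66 in diploid female abdomens, F14 over F2, was at -1.73 (SE 0.64, adjusted p = 0.192), in a comparison with 0.171% of genes called (2.16% without C46). None of the 3 genes was called in diploid male abdomens, where 11.7% of all genes were.

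Males (F5, F15) and females (F2, F14) were collected at different generations, so sex and generation cannot be told apart. In abdomens, Zasp66 was the gene with the wide gap. Every male abdomen had at least 156 TPM, and 16 of 17 female abdomens had at most 115 TPM, the exception being C69. Diploid males over diploid females gave a log2 fold change of 3.45 for Zasp66 (SE 0.48, adjusted p = 1.44e-07) and 1.13 for Tm1 (SE 0.31, adjusted p = 0.00157). Haploid males over diploid females gave 3.34 for Zasp66 (SE 0.48, adjusted p = 2.39e-07) and 1.82 for Tm1 (SE 0.32, adjusted p = 6.43e-06, edgeR). Most genes were called in these comparisons, 84.4% with diploid and 85.5% with haploid males, and the median of all genes was itself at 0.61 and 0.60. Zasp66 lay far above that median, and Tm1 in diploid males nearer to it. Without C46, diploid males gave 3.51 for Zasp66 and 1.09 for Tm1, both still called. The germ-line genes summed to 0.69 to 3.23 TPM in male abdomens and to 636 to 1712 TPM in female abdomens, which hold the ovaries. All 4 neuronal genes were called as higher in both comparisons, with log2 fold changes of 2.19 to 4.08 in diploid and 1.45 to 3.06 in haploid males (edgeR). The diploid male values include C46, with a neuronal sum of 455 TPM, and were not refitted without it. The other male abdomens had 31.3 to 100 TPM and the female abdomens 6.77 to 27.3 TPM. The part of germ-line and neuronal RNA in the sex difference was not tested.

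Tm2 was not called between the sexes in abdomens. It was between 30.7 and 60.6 TPM in 17 of 18 male abdomens and between 52.7 and 104 TPM in female abdomens. Diploid males over diploid females gave a log2 fold change of -0.54 (SE 0.35, adjusted p = 0.157), which was called with limma (-0.98, adjusted p = 0.0112) and with these groups fitted alone (-0.65). Haploid males over diploid females gave 0.72 (SE 0.36, adjusted p = 0.0599), and without C87 the sign turned to -0.42 with adjusted p = 0.00024. In heads edgeR called none of the 3 genes between the sexes. Diploid males over diploid females gave 1.25 for Zasp66 (SE 0.43, adjusted p = 0.0629) and 1.13 for Tm1 (SE 0.43, adjusted p = 0.103), with 9% of genes called. DESeq2 called both (adjusted p = 0.0189 for Zasp66 and 0.0425 for Tm1), as did edgeR without C93, whose values were 1.44 and 1.31. Haploid males over diploid females gave 0.94 for Tm1 (SE 0.43, adjusted p = 0.0937) and 0.72 for Zasp66 (SE 0.42, adjusted p = 0.198), with 32.4% called. The Tm1 value had an unadjusted p = 0.0375 and was 1.09 without C84 (adjusted p = 0.0411).

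Between tissues, Zasp66 was higher in female heads than in female abdomens, with a log2 fold change of 1.15 (SE 0.29, adjusted p = 0.000508). Tm2 was lower in female heads, at -0.33 (SE 0.06, adjusted p = 5.99e-06), with a median level of 45.2 TPM in female heads and 81.6 TPM in female abdomens, and Tm1 stood at -0.19 (SE 0.17, adjusted p = 0.284). The direction of Tm1 turned on the TPM scale, with medians of 859 TPM in female heads and 600 TPM in female abdomens and a limma value of 0.34, which was not called. Of all genes 88.9% were called in this comparison and their median was 0.23. In males none of the 3 was called (75.2% of genes called), with 0.13 for Tm1, -0.24 for Tm2 and -0.34 for Zasp66, and adjusted p of at least 0.291. Without C87 the value for Tm2 in males was 0.33 and was called (adjusted p = 0.0396). Over the 26 comparisons, 16 of the 78 tests of the 3 genes were calls (20.5%), where 25.7% of the tests of all genes were. Of the 16 calls, 9 were kept in every refit that left out 1 library.

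Across libraries, Tm1 and Zasp66 varied together. In the 35 heads, the correlation of log2(CPM + 1) was r = 0.93 for Tm1 and Zasp66 (Spearman rho 0.94, permutation p = 1e-05, the smallest the permutations can give, adjusted p = 3e-05 over 6 relations). It was 0.92 without C91 and C82, the libraries farthest from the median. Within groups, on deviations from the group means, r was 0.93 in heads (rho 0.93, permutation adjusted p = 6e-05 over 6 relations) and 0.87 in abdomens (rho 0.77, adjusted p = 0.00042). Without C69 and C89 the value in abdomens was 0.77, and without C46 it was 0.89. Tm1 and Tm2 gave r = 0.17 in heads and 0.35 in abdomens within groups (permutation adjusted p = 0.64 and 0.489, rho -0.09 and 0.17). Tm2 and Zasp66 gave 0.14 and 0.32 (adjusted p = 0.64 and 0.203, rho -0.12 and 0.29). Among all 18 male abdomens, Tm1 gave r = 0.60 with Zasp66 (rho 0.59, permutation adjusted p = 0.0175 over 6 relations) and 0.59 with Tm2 (adjusted permutation p = 0.00729; rho 0.50, adjusted p = 0.0542). Without C87 and C86 these were 0.44 and 0.51. Among the 17 female abdomens, Tm1 and Tm2 gave r = -0.29 (permutation adjusted p = 0.26; rho -0.53, adjusted p = 0.0468), and r was -0.80 without C69 and C29. On the TPM scale, log2(TPM + 1), the same libraries gave r = -0.79 for Tm1 and Tm2 (permutation adjusted p = 0.00018; -0.66 without C69 and C29) and -0.77 for Tm2 and Zasp66 (adjusted p = 0.00024; -0.61 without C69 and C27). By counts, Tm2 and Zasp66 gave -0.32 (permutation adjusted p = 0.26).

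The ratio of Tm1 to Zasp66 had similar medians in both sexes in heads, but not in abdomens. In TPM it had a median of 8 in male heads (2.2 to 14.2) and 8.19 in female heads (5.28 to 10.9). In male abdomens it was lower, with a median of 5.79 (2.22 to 9.41), and in female abdomens it was higher, at 19.9 (10.1 to 44.2). The ranges of male and female abdomens did not overlap. F5 diploid male heads held the lowest ratio of the male heads, in C44, whose Tm1 was low while its Zasp66 was not. C69, at 10.1, had the lowest ratio of the female abdomens. The ratio of Tm1 to Tm2 ran from 4.77 to 199 over single libraries, with group medians as far apart as 6.19 in F2 triploid female abdomens and 62.5 in F15 diploid male heads. These ratios are descriptions and were not tested.

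**Figure D3:**
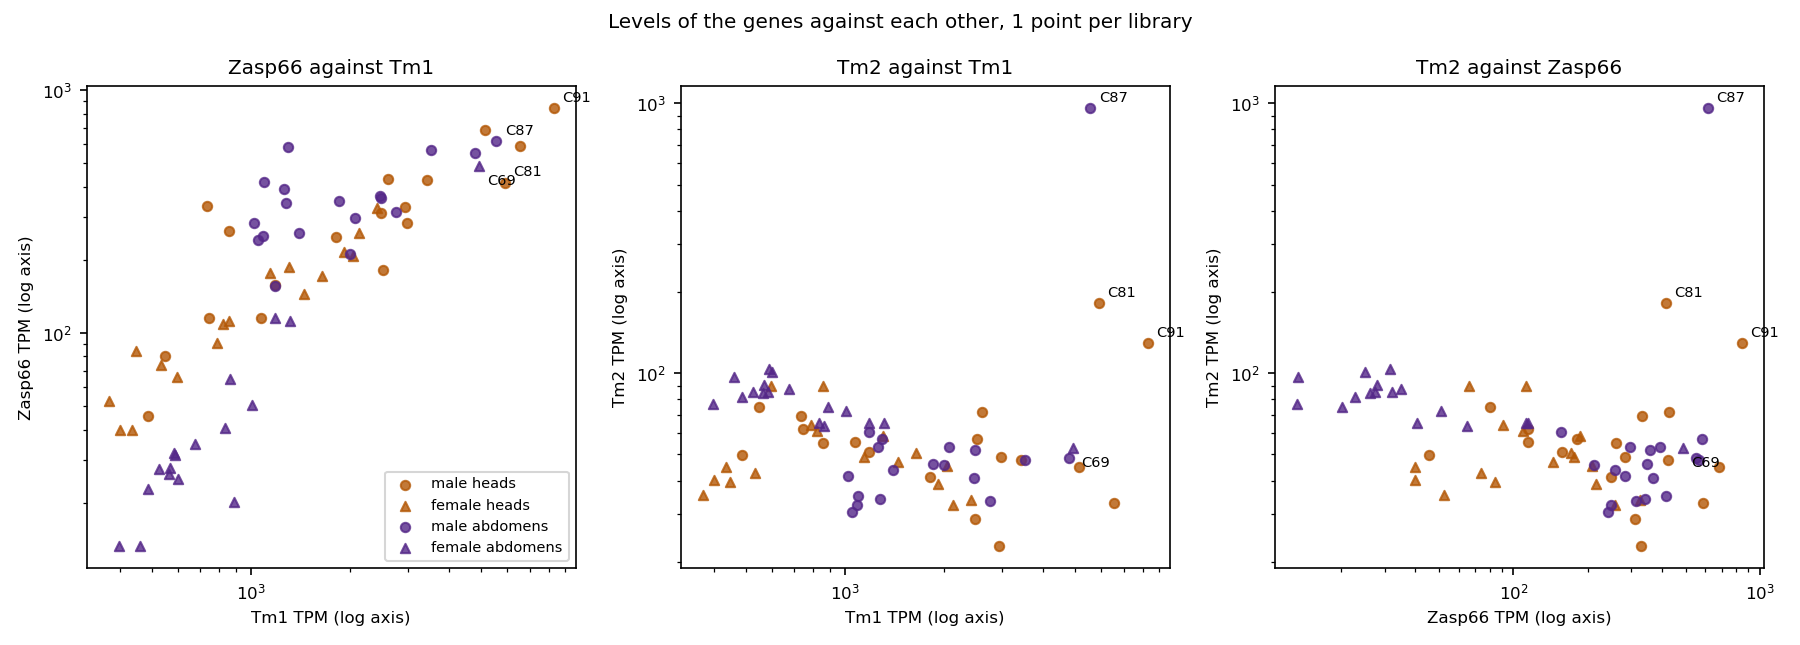
TPM of the genes against each other on log axes, 1 point per library, for Zasp66 against Tm1, Tm2 against Tm1 and Tm2 against Zasp66; colours give the tissue and shapes the sex. Zasp66 rises with Tm1 in heads, most female abdomens lie below that line, and Tm2 shows no common line, with C87, C81 and C91 above the other libraries.

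The genes most like each member were sought among those with a name and not only a locus number. Likeness was Pearson's r of log2(CPM + 1) over the 35 libraries of a tissue, given as a description. In heads, Tm1 was most like CPR37, a cuticle protein gene (r = 0.93), and Sdha, a subunit of succinate dehydrogenase (r = 0.89), followed by CPLCP2, SP38 and apd-1 (r = 0.87 each). Zasp66 in heads was most like CPR37 (r = 0.84), Sdha (0.83), Ogdh (0.80), Pmpcb (0.80) and SP38 (0.79). Ogdh, a subunit of the oxoglutarate dehydrogenase complex, is the annotated neighbour of Zasp66 on the chromosome. Counting all tested genes, 36 had r of at least 0.9 with Tm1 in heads (1 of them named), 25 with Zasp66 (0 named) and 0 with Tm2. The gene most like Tm1 in heads, and that most like Zasp66, had only a locus number (r = 0.98 each). The named genes, 687 of 11782 compared in heads, thus give a partial view. In abdomens Zasp66 had 677 genes with r of at least 0.9 (20 named) and Tm1 68 (3 named). CPR34 was the nearest named gene to Zasp66 (r = 0.97), then Y-b, SP110, CYP4AB9 and Mmp1 (0.94 to 0.95). Tm1 in abdomens was most like CPR37 (r = 0.92), Cpap3-b, CPR23, CPR34 and Cpap3-d1 (0.88 to 0.90), all named as cuticle or chitin-binding proteins. The sexes differ in abdomens for a large share of genes, so these values hold the sex difference too. The abdomen values and counts include C46, and values without it are not given.

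In heads, the named genes nearest to Tm2 were TWDL2 and Cyp303a1 (r = 0.77 each), CPR44 (0.76), CPR10 (0.66) and TWDL1 (0.64), of which all but the cytochrome P450 gene Cyp303a1 are named as cuticle proteins. Without C81 and C91 these values were 0.00, 0.21, 0.06, -0.11 and 0.08. In abdomens Cyp303a1 (0.72), CPR10 (0.65), b6 (0.63), TWDL2 (0.59) and Ndufs3 (0.59) came first, and without C87 and C97 these values were -0.39, -0.43, 0.40, -0.41 and 0.35. All of these abdomen values include C46.

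A further measure bears on how the TPM values and the fold changes from counts compare. RSEM, the program behind the tables, divides reads among the transcripts of a gene and corrects TPM by the mean effective length of the transcripts it assigns them to. Dividing a gene's expected count by its TPM, and scaling by the median gene of the library, therefore gives that gene's effective length relative to the median library. This measure was added after the data had been seen. The edgeR and DESeq2 fold changes come from counts and are not corrected for this length. For most genes this length hardly varied: over 5136 genes with at least 100 counts in every library, the median SD of its log2 was 0.00937. For Tm1 it was 0.217, wider than in 98.6% of the genes, for Tm2 0.314 (99.4%) and for Zasp66 0.0871 (94.5%). The genes compared were not matched for their number of annotated transcripts, so these shares do not rank the 3 genes among genes with as many transcripts. The effective length of Tm1 ran from 0.798 in C82 to 1.34 in C37, and that of Tm2 from 0.685 in C87 to 1.66 in C63.

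Tm1 had its short effective lengths where its level was high. In F2 female heads the mean length was 1.17 ± 0.0619 in triploids (SD, n = 5) and 0.876 ± 0.0121 in diploids (SD, n = 4), without overlap (exact two-sided permutation test, p = 0.00794, the smallest this design allows, adjusted p = 0.0317 over 36 comparisons). None of the other 23 comparisons between ploidies passed that adjustment. At F14 and F15, with 4 libraries against 4, the smallest p of the exact test is 0.0286. Tm2 in F15 male abdomens reached that floor and still had an adjusted p = 0.0857. The F14 and F15 comparisons could thus not pass here, and they do not show that lengths were equal. The lengths of Zasp66 in F2 female abdomens (1.04 ± 0.0521 in triploids, n = 5, and 0.941 ± 0.00999 in diploids, n = 4, exact permutation adjusted p = 0.0519) and of Tm2 in F15 male abdomens (0.92 ± 0.0278 in diploids and 0.82 ± 0.0983 in haploids, n = 4 each, exact permutation adjusted p = 0.0857) did not overlap. In male abdomens the mean length of Tm1 was 0.953 ± 0.0641 (SD, n = 18) and in female abdomens 1.19 ± 0.15 (SD, n = 17; permutation adjusted p = 9e-05). The shortest in female abdomens, 0.823, was that of C69. Since length and level of the same gene share the TPM, the length of Tm1 was set against the level of Zasp66. The correlation was -0.83 in male heads (rho -0.77, permutation adjusted p = 0.000107 over 4 relations) and -0.94 in female heads (rho -0.93, adjusted p = 4e-05). It was -0.57 in male abdomens (rho -0.49, adjusted p = 0.0134) and -0.87 in female abdomens (rho -0.77, adjusted p = 0.000107). Without the 2 libraries farthest from the median level these were -0.69, -0.92, -0.40 and -0.66, and without C46 the male abdomens gave -0.66. The relation in male abdomens thus leans on C89 and C87. These correlations pool the groups of a sex and tissue and were not run within groups. Differences between groups are therefore part of them, and their p-values treat the libraries as exchangeable.

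Tm2 differed in length between tissues. Its mean length was 1.42 ± 0.125 in female heads and 0.934 ± 0.091 in female abdomens (SD, n = 17 each), and no female head overlapped a female abdomen (permutation adjusted p = 9e-05). In male heads it was 1.09 ± 0.206 and in male abdomens 0.918 ± 0.113 (SD, n = 18 each; permutation adjusted p = 0.0229), with overlap. C46 had the longest Tm2 of the male abdomens, 1.21, and without it their mean was 0.901. Male heads were shorter than female heads (permutation adjusted p = 9e-05). C81 and C91, the male heads with the highest Tm2 level, had the shortest lengths among heads, at 0.778 and 0.783. Zasp66 differed less, with 1.08 ± 0.0442 in female heads and 0.976 ± 0.0515 in female abdomens (SD, n = 17 each; permutation adjusted p = 9e-05), and 1.02 ± 0.044 in male heads and 0.973 ± 0.0398 in male abdomens (n = 18 each, permutation adjusted p = 0.00504). Libraries of several groups are pooled in these tissue and sex comparisons, and their p-values treat them as exchangeable. The log2 fold change of -0.33 for Tm2 in female heads against female abdomens came from counts, without a correction for length. Levels of single transcripts were not used here.

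**Figure D4:**
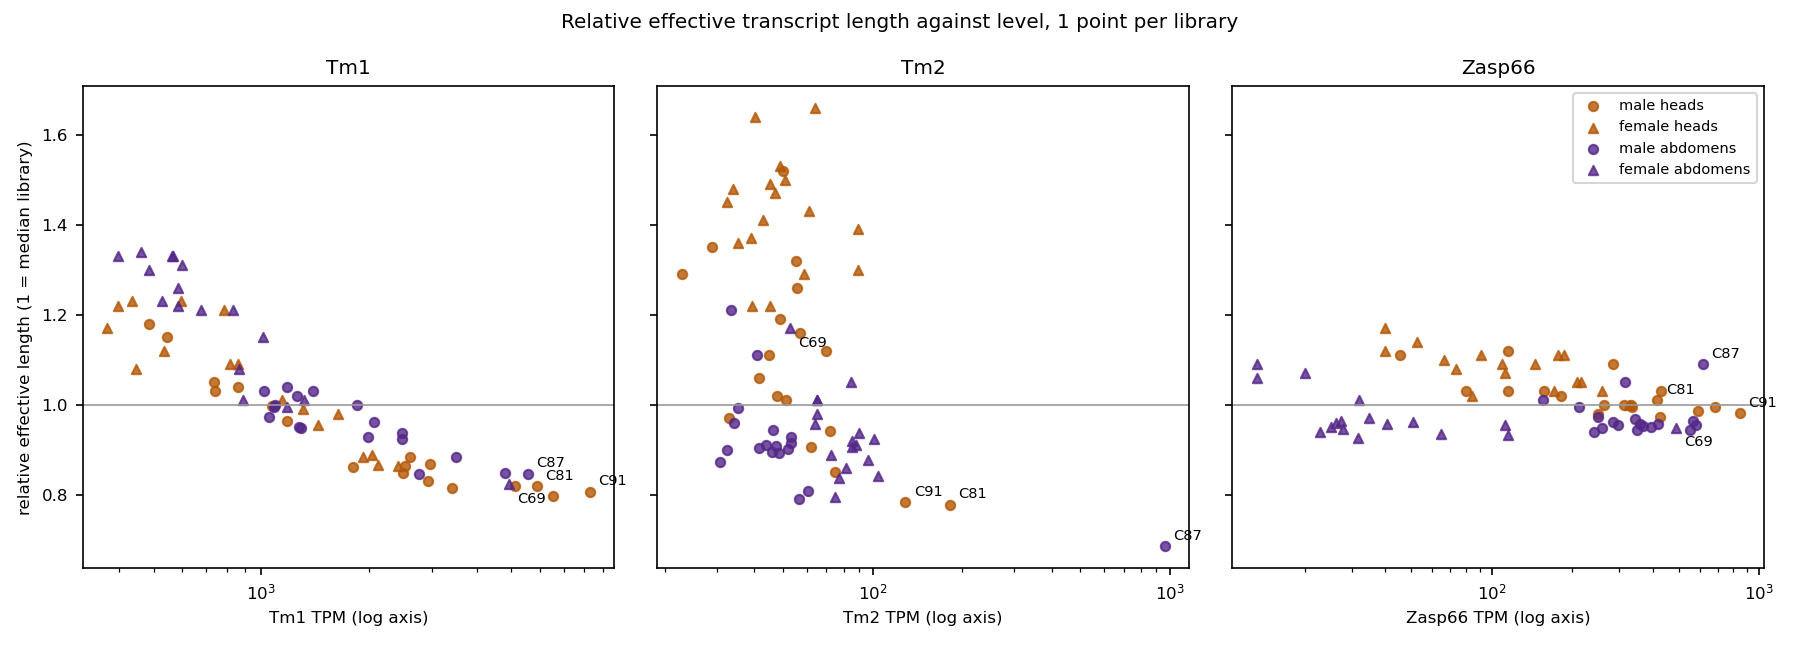
Relative effective length (1 = median library) against level in TPM (log axis) for Tm1, Tm2 and Zasp66, 1 point per library, with colours for tissue and shapes for sex. Tm1 falls from about 1.34 at low levels to about 0.80 at high levels, female heads lie above female abdomens for Tm2, and Zasp66 varies less than Tm1 and Tm2. The length is the count divided by the TPM, so the axes share the TPM.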

How the data were processed

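Poly-A RNA was sequenced in 35 head libraries and 35 abdomen libraries. Per the submitters' processing notes, the authors aligned reads with STAR 2.7.11a and estimated expression with RSEM 1.3.1; the build they aligned to was not given in the sources used here. The authors deposited expected counts for 14621 genes, of whose values 18.2% were not whole, and TPM for 14613 genes. RSEM shares reads among similar sequences, so the tropomyosin genes could exchange reads. The kit is not stated to keep strand. Expected counts were rounded and tested with edgeR 4.0.16 in R 4.3.3 (TMM, filterByExpr, quasi-likelihood). Heads (11785 genes tested), abdomens (12308), females (12114) and males (12387) had a fit each. A self-test on simulated counts preceded the fits. Log2 values used a pseudocount of 1, and permutation tests of 10 or more libraries 100000 permutations. No 2 libraries of a group were copies of each other (lowest mean chi-square per gene 4.91). Replicates carry library codes and no shared numbers. Named genes were the members and the 5 named genes most like each in each tissue. The members and lists were chosen with earlier results of these data known. Alternatives were RLE size factors, no low-count filter, the compared groups alone, limma 3.58.1 on log2(TPM + 1), DESeq2 1.42.0 and leaving out each library, and, chosen after seeing the data, every abdomen fit without C46. The muscle list matched 0 symbols and was not analysed here.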

Additional observations from a re-analysis of the deposited data

Results flagged for a closer look

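Single libraries stood far from the others of their group in 6 of 48 combinations of gene and group. The flags come from Dixon's test on TPM at the 95% level. It would flag about 2.4 by chance among independent, normally distributed values. TPM need not be so distributed and the genes share libraries, so 2.4 is a rough guide only. Tm1 was at 4909 TPM in C69, an F14 triploid female abdomen, where the other 3 libraries had 586 to 1009 TPM. Zasp66 was at 487 TPM in the same library, where the others had 31.5 to 50.6 TPM. Tm2 was at 961 TPM in C87, an F15 haploid male abdomen, where the others had 45.8 to 60.6 TPM. It was at 182 TPM in C81, an F15 haploid male head (others 32.9 to 57 TPM), at 129 TPM in C91, an F15 diploid male head (others 45 to 49.8 TPM), and at 81.6 TPM in C30, an F2 diploid female abdomen (others 63.9 to 65.3 TPM).

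The ploidy difference of female abdomens differed between F14 and F2 by the test of that difference itself, by 2.10 on the log2 scale for Tm1 (edgeR adjusted p = 0.011) and by 4.61 for Zasp66 (adjusted p = 0.000344). The Tm1 value was 1.05 without C69 and no longer passed.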

How the results depend on the processing

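The calls of Tm1 and Zasp66 in F2 female heads, and of both genes between the sexes in abdomens, were kept under RLE size factors, without the low-count filter, with the compared groups alone, with limma, with DESeq2 and in every refit without 1 library. Without the low-count filter all 78 values of the 3 genes kept their direction and their side of the threshold, and with RLE size factors 77 did, the exception being Tm2 in haploid male against diploid female abdomens, called at 0.79 (adjusted p = 0.0397). RLE moved the median of all genes in diploid male against diploid female abdomens to 0.71, against 0.61 with TMM, and in female heads against abdomens to 0.35, against 0.23.

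Fitted with the compared groups alone, 10 of 72 values became calls: the changes of the ploidy difference in female heads (1.72 for Tm1, 1.5 for Zasp66), F14 over F2 in triploid heads (0.67 for Tm1, 0.46 for Tm2), diploid heads (-1.08 for Tm1, -1.05 for Zasp66) and diploid female abdomens (-0.71 for Tm1, -1.76 for Zasp66), Zasp66 in F2 female abdomens (-1.79) and Tm2 in diploid male against female abdomens (-0.65). In the same fits 5 calls were lost: F14 female abdomens (1.58 for Tm1, 2.89 for Zasp66), F15 male abdomens (-2.37 for Tm2), triploid female abdomens between generations (1.47 for Tm1) and haploid male abdomens between generations (2.01 for Tm2). With limma, 4 of these calls were lost, at 1.06 for Tm1 and 1.39 for Zasp66 in F14 female abdomens, 1.18 for Tm1 in triploid abdomens between generations and 1.17 for Tm2 in haploid male abdomens between generations, and Tm2 in diploid male against female abdomens was called at -0.98. On that TPM scale 4 uncalled values changed sign, to 0.34 for Tm1 in female heads against abdomens, 0.08 for Tm2 in male heads against abdomens, -0.15 for Tm2 in haploid male against diploid female abdomens and -0.25 for Zasp66 in diploid male heads between generations. DESeq2 added 5 calls: Tm1 in haploid male heads between generations (1.5), Tm1 and Zasp66 in diploid male against female heads (1.13 and 1.26), Zasp66 in F2 female abdomens (-1.77) and Tm1 in F15 male abdomens (-1.25). It gave no adjusted p for 13 values, all of Tm2. The cause of these changes was not tested.

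Leaving out 1 library at a time gave 1068 refitted values, of which 7 lost a call, 17 gained one and 3 were reversed. The reversals were all of Tm2 without C87. Haploid male abdomens between generations ran between -0.28 and 2.35, haploid male against diploid female abdomens between -0.42 and 0.90, and male heads against male abdomens between -0.41 (without C81) and 0.33 (without C87). F15 male abdomens ran between -2.72 and -0.09 for Tm2 and between -1.54 and -0.90 for Tm1, and the change of the ploidy difference in male abdomens between -2.58 and 0.05 for Tm2. F14 female abdomens ran between 0.51 and 1.84 for Tm1 and between 0.70 and 3.23 for Zasp66, triploid abdomens between generations between 0.37 and 1.70 and between 0.72 and 3.24, and the change of the ploidy difference in female abdomens between 1.05 and 2.38 for Tm1. Zasp66 in F2 female abdomens ran between -2.04 and -1.51. In heads, haploid males between generations ran between 0.99 and 1.89 for Tm1 and between -0.04 and 0.79 for Tm2, diploid males against diploid females between 0.76 and 1.31 for Tm1 and between 0.94 and 1.44 for Zasp66, and haploid males against diploid females between 0.69 and 1.09 for Tm1. By Spearman's rho in place of Pearson's r, 5 of the 5 named genes most like Tm1 in heads were shared, 4 for Zasp66 and 0 for Tm2, and in abdomens 2, 1 and 0. No paired analysis was possible because replicates carry library codes that share no numbers between groups.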
